A study of Mus musculus with 8 samples.

Results

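DNA replication and S-phase genes are the 39 genes listed here by symbol that act at the replication fork or supply it. They are subunits of the helicase and its loading factors, polymerases and fork enzymes, fork checkpoint factors, enzymes of nucleotide supply, repair factors, chromatin factors and a cyclin. The rule names them by symbol and uses no measured value, and all 39 were found once each among the 27998 genes of the matrices. Single-cell RNA sequencing had been performed on EpCAM+ epithelial cells of small intestinal crypts from adult control mice (WT) and from mice homozygous for a deletion of ieCtnnb1, an intestinal enhancer of Ctnnb1 (KO), both on a C57BL/6 background. By the study's account the controls were H11 i.enh mice, which carry a LacZ and Cre reporter driven by the enhancer's core at the H11 locus, while the deletion was not restricted to a tissue by a Cre. The labels list 4 samples a group, while the study describes a pool of female mice, fewer for each genotype than 4. Each group was deposited as 1 matrix of pooled cells with no map from cells to samples or mice. Each group was therefore 1 sample, no test between groups was possible, and every interval given is a 95% interval of counting error alone.

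Before each division a cell loads the MCM helicase on its origins in G1, fires the origins in S phase and copies its DNA with polymerases that are held on the template by the sliding clamp PCNA. Most genes of this machinery are transcribed under E2F factors at the passage from G1 to S, while genes of mitosis are transcribed later. In the intestine, the crypt base columnar stem cells and the transit-amplifying progenitors above them divide, and enterocytes, goblet, Paneth, enteroendocrine and tuft cells have in the main left the cycle.

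The WT matrix held 134876816 unique molecular identifiers (UMIs, 1 for each captured transcript) over 15987 barcodes and the KO matrix 123794575 over 12763. After the filters 13095 WT and 8658 KO cells were kept, and cells of at least 2000 UMIs were gated by marker genes that are none of the 39. Gated cells were deeper in KO, with medians of 7244 UMIs in WT and 10883.5 in KO stem cells and of 8720 and 17876.5 in cycling cells. The matrices shared 57 barcodes, and the summed replication genes without them stood within the intervals given. The gates were 267 WT and 332 KO stem cells (stem markers present, mitotic markers low) and 1905 and 1008 cycling cells (mitotic markers high, no differentiation marker high). The cycling cells were divided into cycling stem cells and cycling progenitors by the stem markers. Gates of immature and mature enterocytes, goblet, Paneth, enteroendocrine and tuft cells completed them, and the gates ran from 27 to 3083 cells. Cells with high mitotic markers were kept out of these gates. Mature enterocyte, Paneth, enteroendocrine and tuft cells with high mitotic markers (327 WT and 137 KO cells) were set apart and are not described. The contents of the gates moved with the group. The median level of the stem markers was 30.6 per 10000 UMIs in WT and 16.7 in KO stem cells. That of the mitotic markers was 38.4 in WT and 24.6 in KO cycling cells. Both gates also asked for at least 4 markers detected, so deeper cells could pass at a lower level. Within 1.2-fold of the limit of level stood 5 of 267 WT and 29 of 332 KO stem cells. In cycling cells 53 of 1905 WT and 81 of 1008 KO cells did. The part of depth in these medians and in the ratios of these gates was not tested. Ctnnb1 stood at 219 CPM (UMIs of a gene per 1000000 UMIs of the gated cells) in WT and 138 in KO cycling cells. Mature enterocytes and stem cells of the matrix labelled KO also had less Ctnnb1 (log2 ratios -0.81 and -0.64). The median log2 ratio of all tested genes was -0.38 in mature enterocytes, -0.24 in stem and -0.38 in cycling cells. Lower in KO by at least 1.5-fold were 3393 of 8702 genes in mature enterocytes, 2403 of 7805 in stem and 4151 of 10725 in cycling cells. A drop past that fold was thus not particular to Ctnnb1, which was not set against genes of its length. Markers of lymphocytes, stroma and red cells summed to at most 0.0287 per 10000 UMIs in stem, cycling and enterocyte gates. Free RNA, which enters droplets from broken cells, was estimated for each gate from barcodes of under 2000 UMIs and came to 3.34% in WT and 3.802% in KO of the summed replication genes in stem cells and 3.64% in WT and 3.52% in KO in cycling cells.

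The promoters are shown because the genes varied together between cell types, as given below them. RefSeq windows on GRCm38.p6, from 250 bases before to 50 after a start, were at hand for 29 of the 39 genes (35 windows). The letters of an E2F site (TTTGGCGC, TTTCGCGC, TTTCCCGC or TTTGCCGC, read on both strands) were found in 13 of them (37.1%), against 744 of 32851 windows of all genes (2.26%) and 1 of 13 windows of the mitotic marker genes. The letters TTTGAA of the CHR element of late cell cycle genes, read in the same way, were found in 5 of 35 windows of the replication genes, 9 of 13 of the mitotic genes and 17.9% of all windows. In 9 genes an E2F match lay wholly before the start, and 60 bases that hold it are given 5′ to 3′ with the match in capitals:
Mcm5: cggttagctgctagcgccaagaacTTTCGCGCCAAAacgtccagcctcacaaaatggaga
Mcm6: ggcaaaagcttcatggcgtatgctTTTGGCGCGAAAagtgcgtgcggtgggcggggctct
Mcm7: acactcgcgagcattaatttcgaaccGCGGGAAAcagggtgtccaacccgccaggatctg
Cdc6: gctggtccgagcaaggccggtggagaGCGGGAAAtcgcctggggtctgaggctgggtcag
Pola1: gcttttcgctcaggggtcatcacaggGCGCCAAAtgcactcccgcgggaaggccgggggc
Dtl: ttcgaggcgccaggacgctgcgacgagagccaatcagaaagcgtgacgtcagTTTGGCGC
Uhrf1: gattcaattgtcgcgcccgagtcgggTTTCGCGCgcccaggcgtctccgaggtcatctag
Hells: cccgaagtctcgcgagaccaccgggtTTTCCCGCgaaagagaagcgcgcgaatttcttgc
Cdca7: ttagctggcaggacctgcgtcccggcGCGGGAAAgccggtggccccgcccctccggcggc
The stretches lie at chr8:75109332-75109391 on the plus strand (Mcm5), chr1:128359780-128359839 on the minus strand (Mcm6), chr5:138172015-138172074 on the minus strand (Mcm7), chr11:98907987-98908046 on the plus strand (Cdc6), chrX:93632260-93632319 on the minus strand (Pola1), chr1:191575545-191575604 on the minus strand (Dtl), chr17:56304102-56304161 on the plus strand (Uhrf1), chr19:38930902-38930961 on the plus strand (Hells) and chr2:72476122-72476181 on the plus strand (Cdca7). In Mcm5 and Mcm6 the capitals hold 2 matches on opposite strands that overlap by 4 bases, which begin 153 bases before the start of Mcm5 and 110 before that of Mcm6. The starts are those of the RefSeq windows. By the gene limits of GENCODE M21 the matches of Mcm7, Cdc6, Uhrf1 and Hells lie inside the gene. The matches are a description of letters and not of factor binding.

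Transcripts of the replication genes were most abundant in the undifferentiated cells. In both matrices mature enterocytes had the lowest CPM of the 5 gates of the absorptive line (stem cells, cycling stem cells, cycling progenitors, immature and mature enterocytes) for 39 of 39 genes. The highest of the 5 was the gate of stem cells for 26 genes in WT and 26 in KO, 25 of them the same, and cycling stem cells for 12 in WT and 10 in KO. Summed over the 39 genes, the WT level was 2759.8 CPM in stem cells, 2529 in cycling stem cells, 1819 in cycling progenitors, 722 in immature and 305 in mature enterocytes. In KO the values were 2606, 2265, 1790.2, 1088 and 313 CPM. The gate of stem cells, which was set to be low in mitotic genes, thus had the highest summed level of the replication genes in both matrices. Its excess on the log2 scale was 0.60 (WT) and 0.54 (KO) over cycling progenitors and 0.13 (WT) and 0.20 (KO) over cycling stem cells. Undifferentiated cells outside the stem, cycling and immature enterocyte gates (124 WT and 167 KO) stood at 2199 CPM in WT and 2298 in KO. A level above that of cycling progenitors was thus not particular to stem cells.

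**Figure D1:**
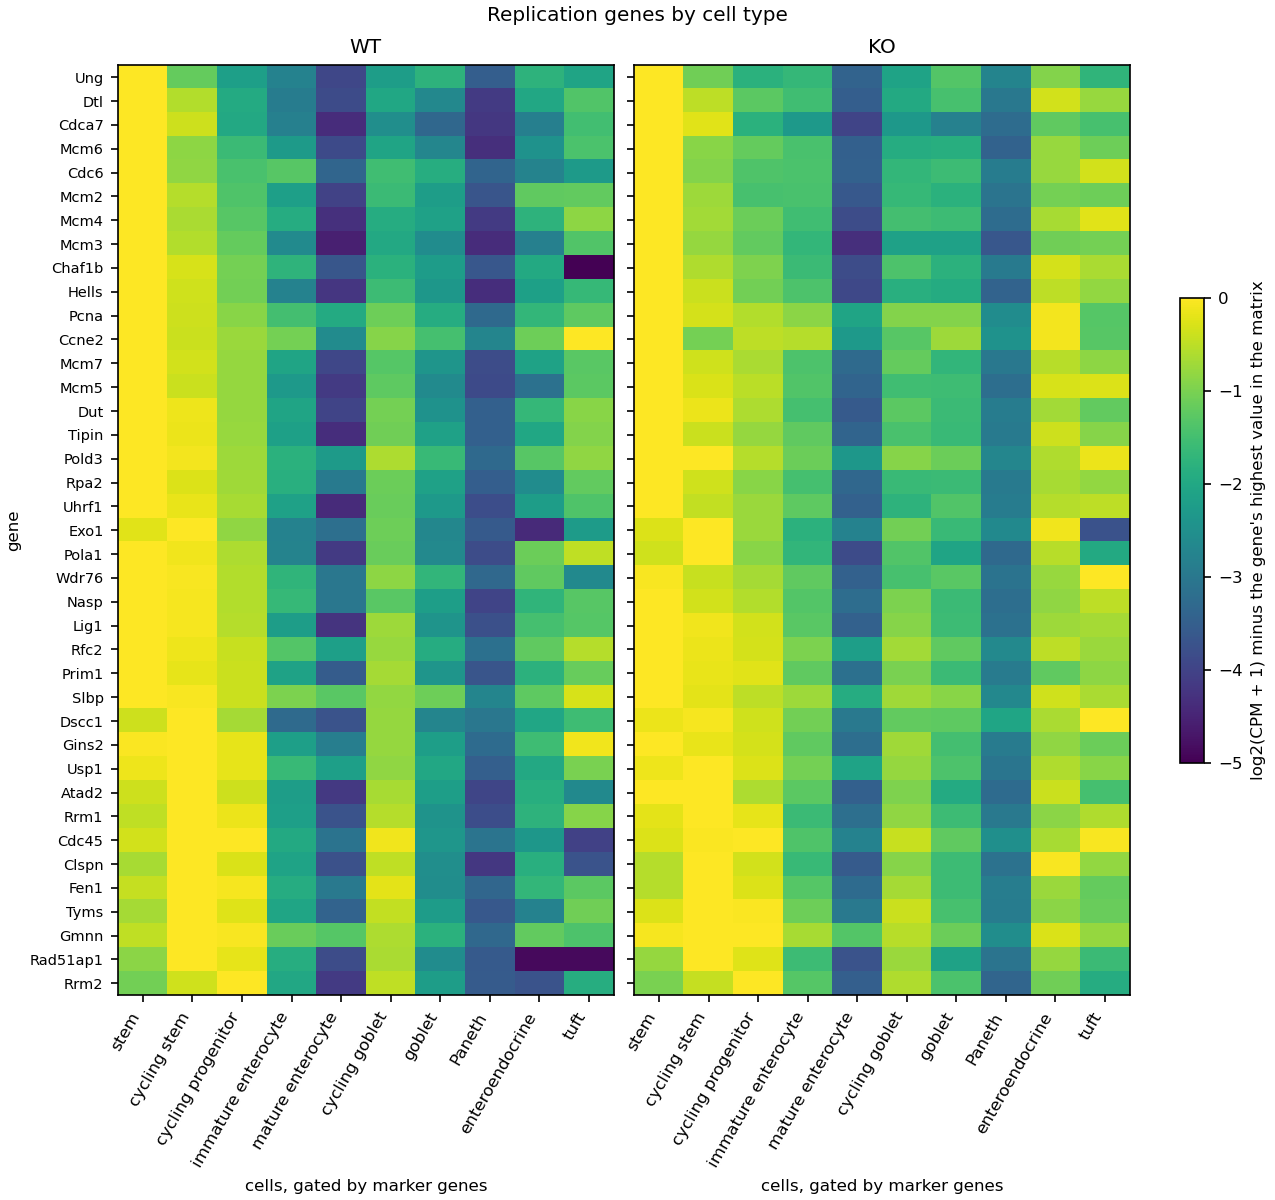
Level of each replication gene (rows, ordered by the WT ratio of stem cells to cycling progenitors) in each gate of cells (columns), for WT and KO, as log2(CPM + 1) minus the highest value of that gene in the matrix. The genes at the top are highest in stem cells, those at the bottom in cycling cells, and mature enterocytes and Paneth cells are dark in both matrices, while enteroendocrine and tuft cells are few, so that single genes there rest on few UMIs.

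Cycling cells exceeded mature enterocytes by at least 2-fold in both matrices for 39 of 39 genes, where 28.2% of all tested genes did so. The median log2 ratio was 3.503 in WT and 3.16 in KO, against 0.47 and 0.53 over all genes. Cells with high mitotic markers had been kept out of the mature enterocytes, so this excess is not independent of the gating. The smallest ratio in WT was that of Slbp (2.12-fold in WT and 2.90-fold in KO), which binds the stem-loop of histone mRNAs. In KO it was that of Gmnn (2.50-fold in WT and 2.57-fold in KO), which encodes geminin, the inhibitor of the licensing factor Cdt1. Large ratios were those of Rrm2, the regulated subunit of ribonucleotide reductase (26.9-fold in WT and 12.7-fold in KO), and Pola1, the catalytic subunit of polymerase alpha (22.3-fold in WT and 20.04-fold in KO). Dscc1, a subunit of an alternative clamp loader, had 168 UMIs in WT cycling cells and 0 in WT mature enterocytes, and in KO its ratio of 24.5-fold was the largest. Stem cells exceeded mature enterocytes by 2-fold in both matrices for 32 of the 33 genes with at least 50 UMIs over both gates in each matrix, where 22.5% of all genes did so. The exception was again Gmnn (1.83-fold in WT and 2.47-fold in KO).

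Within the dividing compartment the genes differed in where they were highest. Stem cells exceeded cycling progenitors by at least 1.5-fold in both matrices for 16 of the 39 genes and were lower by that much for 1, Rrm2, where 6.19% and 8.97% of all genes were. The largest ratio in both matrices was that of Ung, the uracil-DNA glycosylase (4.92-fold in WT and 3.75-fold in KO). Large ratios in both were also those of Cdca7, a partner of the chromatin remodeller Hells (3.996-fold in WT and 3.53-fold in KO), and Dtl, the substrate receptor of the ubiquitin ligase that degrades Cdt1 in S phase (4.02-fold in WT and 2.48-fold in KO). Licensing genes were among the high ones too, with Mcm2 at 2.67-fold in WT and 2.84-fold in KO, Mcm6 at 3.06-fold in WT and 2.29-fold in KO and Cdc6, which loads the helicase, at 2.95-fold in WT and 2.81-fold in KO. At the other end stood Rrm2 (0.463-fold in WT and 0.486-fold in KO) and Rad51ap1 (0.611-fold in WT and 0.674-fold in KO). Near them were Tyms, the thymidylate synthase (0.741-fold in WT and 0.843-fold in KO), and Fen1, the flap nuclease of Okazaki fragments (0.769-fold in WT and 0.818-fold in KO). For these 4 genes the interval lay below 1 in both matrices, and for 24 genes it lay above 1 in both. The order was much the same in the 2 matrices (Spearman's rho 0.92 across the 39 genes, a description, since the gates share their markers).

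The level of the replication genes was next followed along the summed level of the mitotic marker genes, in all undifferentiated and immature enterocyte gates together. In 6 bins from below 2, through 2 to 5, 5 to 10, 10 to 20 and 20 to 40, to 40 or more mitotic UMIs per 10000, the summed replication genes stood at 937, 1491, 2540.3, 2768, 2338 and 1759 CPM in WT and at 955, 1794, 2366, 2308, 1827 and 1508 in KO. Both series went up and then down, and the highest was bin 4 in WT and bin 3 in KO. In KO the 95% intervals of bins 3 and 4 overlapped (2322 to 2411 and 2272 to 2344 CPM). In WT they did not (2467 to 2615 and 2710 to 2827 CPM). By CPM alone, 10 single genes in WT were highest in bin 3, 22 in bin 4, 6 in bin 5 and 1 in bin 6. In KO the counts were 23, 15, 0 and 1. These counts carry no interval, and some genes differed little between bins, as Gins2 in KO (44.2 and 42.5 CPM in bins 3 and 4). A shift of the highest bin between the matrices was therefore not resolved. Genes of the third bin in both matrices numbered 9 and included Cdc6, which ran 3.84, 11.2, 25.6, 17.3, 12.5 and 3.13 CPM in WT and 8.82, 13.9, 16.4, 13.4, 5.61 and 3.92 in KO. Mcm6, a helicase subunit, ran 45.1, 88.5, 132, 119, 76.4 and 43.3 CPM in WT and 44.3, 95.5, 109.7, 86.5, 56.2 and 26.6 in KO. Both licensing genes were therefore past their highest level in the cells richest in mitotic transcripts. Tyms stayed near its highest level through the last bins, at 25.9, 36.2, 78.4, 99.1, 105 and 100.1 CPM in WT and 45.9, 79.8, 122, 133, 129 and 133 in KO. Usp1, which removes ubiquitin from PCNA and from Fancd2, was the 1 gene highest in the sixth bin in both matrices, by little in KO, at 60.5, 70.4, 96.1, 111, 122 and 130.0 CPM in WT and 43.2, 72.8, 86.2, 95.7, 92.9 and 96.2 in KO. The bins held 142 to 903 cells, and the mitotic level is itself a measured one that was lower in KO cycling cells. The kinds of cells also differed between bins. The median level of stem markers per 10000 UMIs went from 3.44 in bin 1 to 13.6 in bin 3 in WT and from 2.65 to 7.19 in KO. Immature enterocytes had low median mitotic levels, 1.90 in WT and 2.29 in KO. The rise over the first bins therefore also carries the kinds of cells, whose part was not tested.

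**Figure D2:**
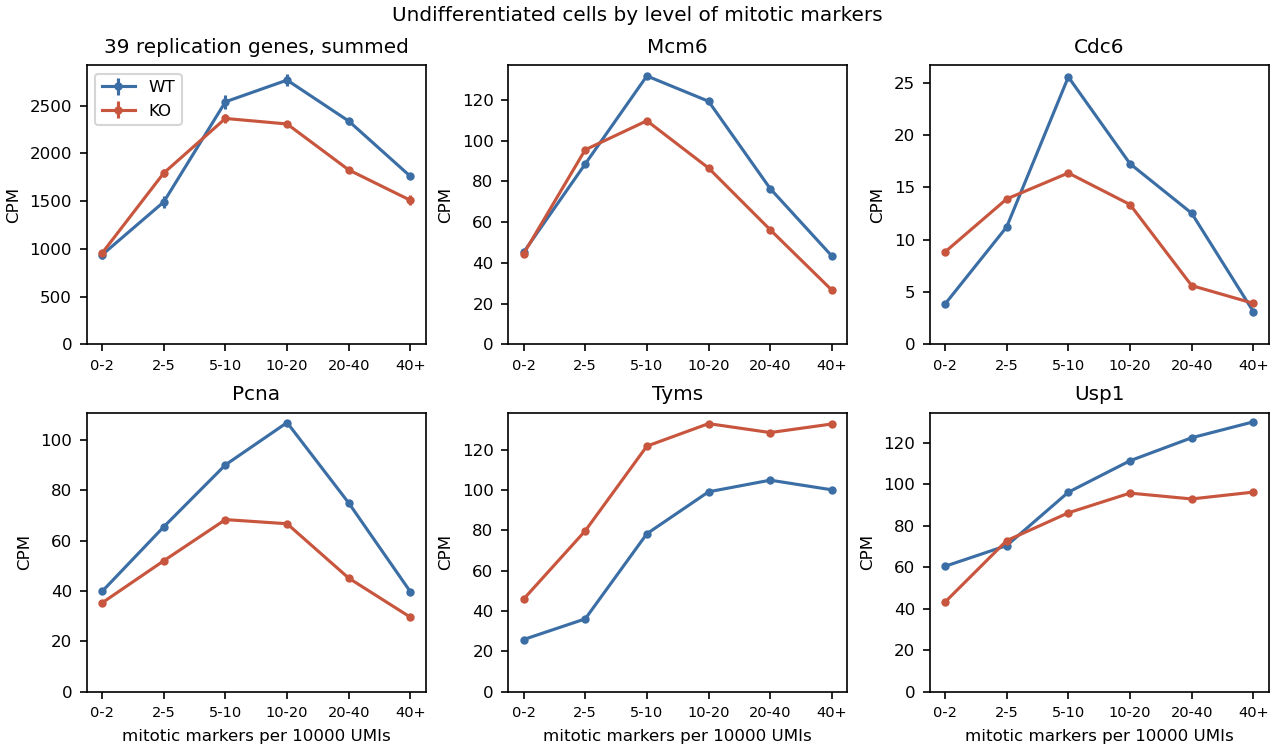
CPM (vertical axis) of the summed replication genes, with 95% counting intervals, and of Mcm6, Cdc6, Pcna, Tyms and Usp1, without intervals, in 6 bins of the summed level of mitotic marker genes per 10000 UMIs (horizontal axis), for WT and KO. The sum is highest in bin 4 in WT and in bin 3 in KO, where the intervals of bins 3 and 4 overlap. The licensing genes go down after these bins, and Usp1 goes up to the last bin in WT.

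KO against WT, the summed replication genes stood at 2147 and 1968 CPM in cycling cells, a log2 ratio of -0.13 (95% interval -0.15 to -0.10). In stem cells the log2 ratio was -0.083 (95% interval -0.13 to -0.036). In cycling stem cells it was -0.16 (95% interval -0.19 to -0.13) and in cycling progenitors -0.023 (95% interval -0.052 to 0.0062). Cycling stem cells were 806 of the 1905 WT and 366 of the 1008 KO cycling cells. A ratio over all cycling cells, here and below, therefore also carries this difference in mix, whose part was not tested. Single genes of at least 50 UMIs were lower in KO by 1.5-fold for 5 of 39 genes in cycling cells, where 38.7% of all genes were, and higher for 0, where 4.29% were. In stem cells 5 were lower and 2 higher, against 30.8% and 6.18% of all genes. The share of replication genes that were lower by this fold was thus below that of all genes, and their median log2 ratios, -0.25 in cycling and -0.17 in stem cells, stood beside -0.38 and -0.24 over all genes. Across the 39 genes the ratios of cycling and stem cells ran in much the same order (Spearman's rho 0.93, a description over different cells of the same 2 matrices). Per cell, and with no correction for depth, WT cycling cells held 19.9 UMIs of these genes and KO cycling cells 36.1, so that the sign of the difference depends on dividing by the total.

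**Figure D3:**
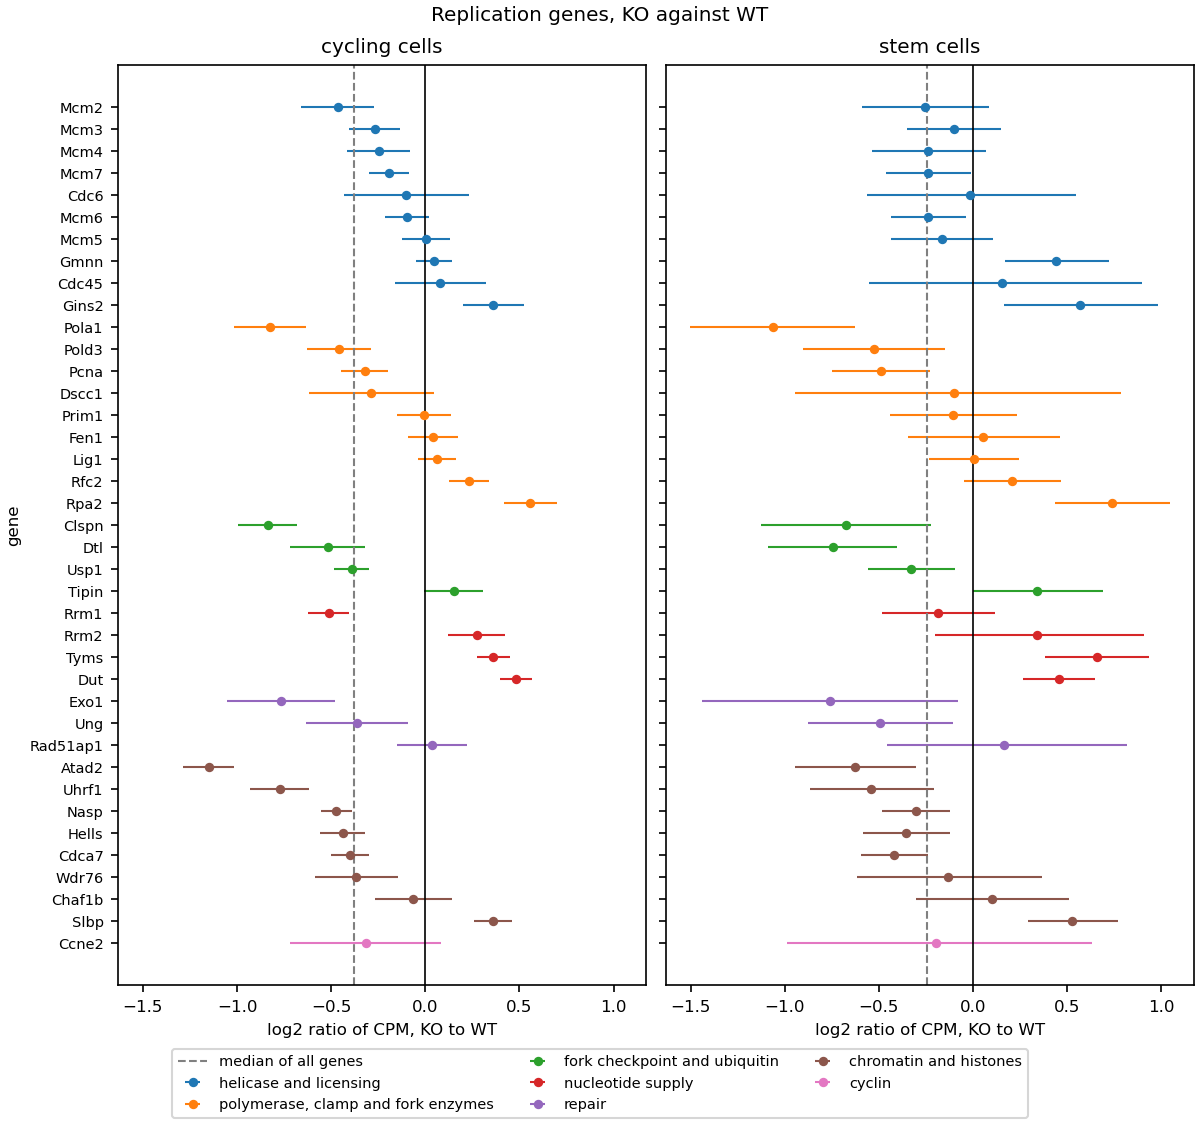
Log2 ratio of KO to WT CPM (horizontal axis) of each replication gene (rows) with its 95% counting interval, in cycling cells and in stem cells, coloured by role, with the median of all tested genes as a dashed line. In cycling cells the genes run from Atad2 at the low end to Rpa2 at the high end, and most genes of nucleotide supply stand to the right of the dashed line.

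The 10 helicase and licensing genes had a summed log2 KO to WT ratio of -0.078 (-0.12 to -0.035) in cycling and -0.073 (-0.16 to 0.017) in stem cells, intervals of 95% in parentheses. Their range in cycling cells ran from Mcm2, a subunit of the MCM ring, at -0.47 (95% interval -0.66 to -0.27) to Gins2, a subunit of the GINS complex that joins the ring with Cdc45, at 0.36 (95% interval 0.20 to 0.52). Mcm2 stood at 29.3 CPM in WT and 21.2 in KO and Gins2 at 31.4 and 40.3 CPM. In stem cells Gins2 was at 0.57 (95% interval 0.17 to 0.98) as well, so both gates gave it more in KO. The other genes of the role lay between, with Mcm3 at -0.27, Mcm4 at -0.25, Mcm5 at 0.0052, Mcm6 at -0.099 and Mcm7 at -0.19 in cycling cells, as did Gmnn at 0.046, Cdc45 at 0.079 and Cdc6 at -0.10. Mcm6 (chr1:128331590-128359664 on mm10, by GENCODE M21) went down along the absorptive line from 159 CPM in stem cells to 87.9, 52.0, 32.2 and 9.88 in mature enterocytes in WT, and from 135 to 72.8, 58.8, 49.2 and 11.4 in KO. For each role the gene with most UMIs over all cells is given in every gate, a count that is no level per length, and here it was Gmnn (chr13:24751845-24761923). Gmnn had, in CPM, 72.8 in stem cells, 101 in cycling stem cells, 98.3 in cycling progenitors, 45.5 in immature enterocytes and 39.8 in mature enterocytes in WT. In KO the same gates had 98.9, 102, 103, 65.0 and 40.03. In the secretory gates its WT and KO levels were 65.8 and 70.8 in cycling goblet cells, 28.1 and 47.0 in goblet cells, 9.26 and 16.7 in Paneth cells, 43.6 and 85.2 in enteroendocrine cells and 38.1 and 59.4 in tuft cells. In mature enterocytes the estimate of free RNA would give 4.69 CPM of it in WT and 5.19 in KO, less than was counted.

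Polymerases, clamp and fork enzymes (9 genes) gave -0.011 (-0.057 to 0.034) in cycling and -0.050 (-0.15 to 0.055) in stem cells. Pola1, the catalytic subunit of polymerase alpha, was lower in KO in both, with a log2 ratio of -0.82 (95% interval -1.02 to -0.63) in cycling cells, from 600 UMIs in WT and 354 in KO, and of -1.06 (95% interval -1.50 to -0.63) in stem cells. Rpa2, a subunit of the single-strand binding complex RPA, was higher in both, with 0.56 (95% interval 0.42 to 0.70) in cycling cells, from 707 UMIs in WT and 1088 in KO, and 0.74 (95% interval 0.44 to 1.04) in stem cells. Pcna, the sliding clamp, stood at 99.96 CPM in WT and 71.3 in KO stem cells and at 64.0 and 51.2 CPM in cycling cells, log2 ratios of -0.49 (95% interval -0.75 to -0.23) and -0.32 (95% interval -0.45 to -0.20). Pold3, a subunit of polymerase delta, had -0.46 (95% interval -0.63 to -0.29) in cycling cells and Prim1, the catalytic subunit of primase, -0.0084 (95% interval -0.15 to 0.13). Fen1 had 0.040 (95% interval -0.093 to 0.17) and Lig1, the ligase of Okazaki fragments, 0.061 (95% interval -0.041 to 0.16) in cycling cells. Dscc1, of few UMIs, had -0.29 (95% interval -0.62 to 0.044). Most UMIs of the role were those of Rfc2 (chr5:134581366-134601805), a subunit of the clamp loader, whose exons overlap those of Lat2 on the other strand. Rfc2 had, in CPM, 87.1 in stem cells, 79.2 in cycling stem cells, 65.2 in cycling progenitors, 33.9 in immature enterocytes and 18.5 in mature enterocytes in WT. The same gates had 101, 90.6, 80.3, 50.02 and 21.1 in KO. Among secretory cells its WT and KO levels were 50.3 and 61.9 in cycling goblet cells, 22.5 and 42.8 in goblet cells, 8.84 and 15.2 in Paneth cells, 37.0 and 71.0 in enteroendocrine cells and 58.8 and 59.4 in tuft cells. Its log2 ratio was 0.23 (95% interval 0.12 to 0.34) in cycling cells, where KO was the higher.

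The 4 fork checkpoint and ubiquitin genes gave the lowest role ratio in cycling cells together with the chromatin genes, -0.39 (-0.46 to -0.33). In stem cells the 4 genes gave -0.31 (-0.46 to -0.15). Taken apart, cycling stem cells gave -0.39 and cycling progenitors -0.33. Clspn, the adaptor through which Chk1 is activated at stalled forks, was at -0.84 (95% interval -0.99 to -0.68) in cycling cells, from 918 UMIs in WT and 537 in KO, and Dtl at -0.52 (95% interval -0.72 to -0.32). Tipin, which holds the fork together with Timeless, was on the other side at 0.15 (95% interval -0.0086 to 0.31). Usp1 (chr4:98923810-98935543) had most UMIs. Usp1 had, in CPM, 121 in stem cells, 133 in cycling stem cells, 116 in cycling progenitors, 42.3 in immature enterocytes and 28.4 in mature enterocytes in WT. In KO the same gates had 96.3, 105, 88.1, 50.3 and 23.7. In the secretory gates its WT and KO levels were 74.1 and 60.4 in cycling goblet cells, 32.3 and 39.5 in goblet cells, 10.9 and 11.8 in Paneth cells, 32.7 and 69.6 in enteroendocrine cells and 65.8 and 56.3 in tuft cells. Its log2 ratio was -0.39 (95% interval -0.48 to -0.30) in cycling and -0.33 (95% interval -0.56 to -0.096) in stem cells, lower in KO in both gates.

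Nucleotide supply (4 genes) was the role with a summed level higher in KO in both gates, at 0.20 (0.15 to 0.25) in cycling and 0.38 (0.24 to 0.51) in stem cells. Dut, the dUTPase that keeps uracil out of DNA (chr2:125247190-125258608), had the most UMIs of the role, with 1929 UMIs in WT and 2811 in KO cycling cells and a log2 ratio there of 0.48 (95% interval 0.40 to 0.56). Dut had, in CPM, 148 in stem cells, 136 in cycling stem cells, 85.5 in cycling progenitors, 34.3 in immature enterocytes and 8.51 in mature enterocytes in WT. The same gates had 203, 184, 133, 72.8 and 15.9 in KO. Among secretory cells its WT and KO levels were 71.6 and 83.9 in cycling goblet cells, 26.3 and 66.9 in goblet cells, 12.4 and 26.3 in Paneth cells, 45.8 and 125 in enteroendocrine cells and 79.6 and 87.6 in tuft cells. Tyms, which makes the thymidylate that DNA needs, had 0.36 (95% interval 0.27 to 0.45) in cycling and 0.66 (95% interval 0.38 to 0.94) in stem cells. Rrm2 had 0.27 (95% interval 0.12 to 0.42) in cycling cells and its partner Rrm1, the large subunit of the same enzyme, -0.51 (95% interval -0.62 to -0.41). The 2 subunits of ribonucleotide reductase therefore differed in the sign of the ratio, and the exons of all their annotated transcripts joined summed to 2771 bases for Rrm2 and 11012 for Rrm1. Their place also differed, with Rrm2 at 19.0 CPM in WT stem cells and 41.1 in cycling progenitors, and Rrm1 at 70.4 and 89.0.

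Repair genes (3) gave -0.25 (-0.38 to -0.11) in cycling and -0.39 (-0.68 to -0.099) in stem cells. Exo1, an exonuclease of mismatch repair and end resection, was at -0.77 (95% interval -1.05 to -0.48) in cycling cells, from 270 UMIs in WT and 166 in KO, Ung at -0.36 (95% interval -0.63 to -0.093) and Rad51ap1 at 0.034 (95% interval -0.15 to 0.22). Rad51ap1 (chr6:126923050-126939587) had most UMIs of the role. Rad51ap1 had, in CPM, 15.2 in stem cells, 28.5 in cycling stem cells, 24.9 in cycling progenitors, 7.0 in immature enterocytes and 1.06 in mature enterocytes in WT. In KO the same gates had 17.1, 30.3, 25.4, 9.54 and 1.38. In the secretory gates its WT and KO levels were 17.9 and 17.6 in cycling goblet cells, 3.97 and 6.18 in goblet cells, 1.45 and 2.72 in Paneth cells, 0 UMIs and 17.0 in enteroendocrine cells and 0 UMIs and 9.39 in tuft cells. Ung was steeper along the absorptive line, with 47.1, 20.3, 9.57, 5.95 and 2.13 CPM in WT and 33.5, 15.3, 8.92, 9.81 and 2.23 in KO.

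The 8 chromatin and histone genes gave -0.38 (-0.42 to -0.33) in cycling and -0.23 (-0.31 to -0.14) in stem cells. Taken apart, cycling stem cells gave -0.37 and cycling progenitors -0.26. Atad2, a bromodomain ATPase that binds newly made histones, had the lowest KO to WT ratio of all 39 genes in cycling cells, -1.15 (95% interval -1.29 to -1.02) from 1393 UMIs in WT and 656 in KO, and -0.63 (95% interval -0.95 to -0.30) in stem cells. Uhrf1, which binds hemimethylated DNA and recruits Dnmt1, had -0.77 (95% interval -0.93 to -0.62) in cycling cells. Hells had -0.44 (95% interval -0.56 to -0.32) and Chaf1b, a subunit of the assembly factor CAF-1, -0.064 (95% interval -0.27 to 0.14) in cycling cells. Cdca7 and Wdr76, of the same role, had -0.40 and -0.37 over all cycling cells. For Cdca7 this value also carries the mix of cycling stem cells and progenitors, whose levels are given below. Slbp was the gene of the group on the other side, at 0.36 (95% interval 0.26 to 0.46). Most UMIs were those of Nasp (chr4:116601052-116627941), a chaperone of histones. Nasp had, in CPM, 197 in stem cells, 187 in cycling stem cells, 132 in cycling progenitors, 61.6 in immature enterocytes and 23.6 in mature enterocytes in WT. The same gates had 159, 125, 106, 62.7 and 16.4 in KO. Among secretory cells its WT and KO levels were 80.3 and 80.02 in cycling goblet cells, 42.0 and 51.9 in goblet cells, 11.6 and 16.5 in Paneth cells, 58.8 and 89.5 in enteroendocrine cells and 79.6 and 113 in tuft cells. Its log2 ratio in cycling cells was -0.47 (95% interval -0.56 to -0.39). Cdca7 marked the stem end in both matrices, at 208, 161 and 52.2 CPM in WT stem cells, cycling stem cells and cycling progenitors and 156, 133 and 44.1 in KO. The cyclin, Ccne2 (cyclin E2, chr4:11191351-11204779), which with Cdk2 starts S phase, was the least counted of the 7 genes shown in every gate. Ccne2 had, in CPM, 10.5 in stem cells, 7.70 in cycling stem cells, 5.79 in cycling progenitors, 4.55 in immature enterocytes and 0.912 in mature enterocytes in WT. In KO the same gates had 9.15, 3.89, 6.23, 5.86 and 1.06. In the secretory gates its WT and KO levels were 5.11 and 3.15 in cycling goblet cells, 3.14 and 5.10 in goblet cells, 0.735 and 0.860 in Paneth cells, 4.36 and 8.52 in enteroendocrine cells and 10.4 and 3.13 in tuft cells. Its log2 ratio was -0.32 (95% interval -0.72 to 0.081) in cycling and -0.19 (95% interval -0.99 to 0.63) in stem cells, with both intervals reaching past 0 on each side.

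The KO to WT ratio moved with the length of the transcript, in these genes as in all genes tested, to a degree that differed between gates. Across all tested genes Spearman's rho of the ratio with the summed exon length was -0.60 in cycling cells, and across the 39 replication genes -0.57, a description over genes that share 2 libraries. Across the replication genes it was -0.46 in stem cells, -0.41 in Paneth cells and -0.21 in mature enterocytes (23 genes), beside -0.60, -0.49 and -0.56 over all genes. The median log2 ratio of all genes went from 0.32 in the shortest of 10 classes of length to -0.99 in the longest. Set against genes of the same class, the median replication gene stood at 0.26 in cycling and 0.13 in stem cells, with 29 and 26 of 39 above 0. On that scale 0 genes in cycling cells were lower by 1.5-fold, where 10.9% of all genes were, and 4 were higher (Rfc2, Slbp, Tyms and Gins2), where 10.7% were, a share near that of all genes. In stem cells 1 was lower, Pcna at -0.71, and 6 were higher, against 11.1% and 10.3% of all genes. The 5 genes lower by 1.5-fold in cycling cells without this step, Atad2, Clspn, Pola1, Uhrf1 and Exo1, had summed exons of 16023, 7186, 8813, 4259 and 8422 bases, and Rpa2, the highest, had 2993. The sign of the summed KO to WT difference in dividing cells therefore depended on this step. The step also takes out the shift common to all genes, whose median log2 ratios were -0.38 in cycling and -0.24 in stem cells. With only this median of all genes taken off, the median replication gene already stood above 0, at 0.13 in cycling and 0.077 in stem cells. The median exon length in cycling cells was 4429 bases for the replication genes and 4409 for all tested genes. For the sum, how much of the change went with length beyond the common shift was not tested.

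**Figure D4:**
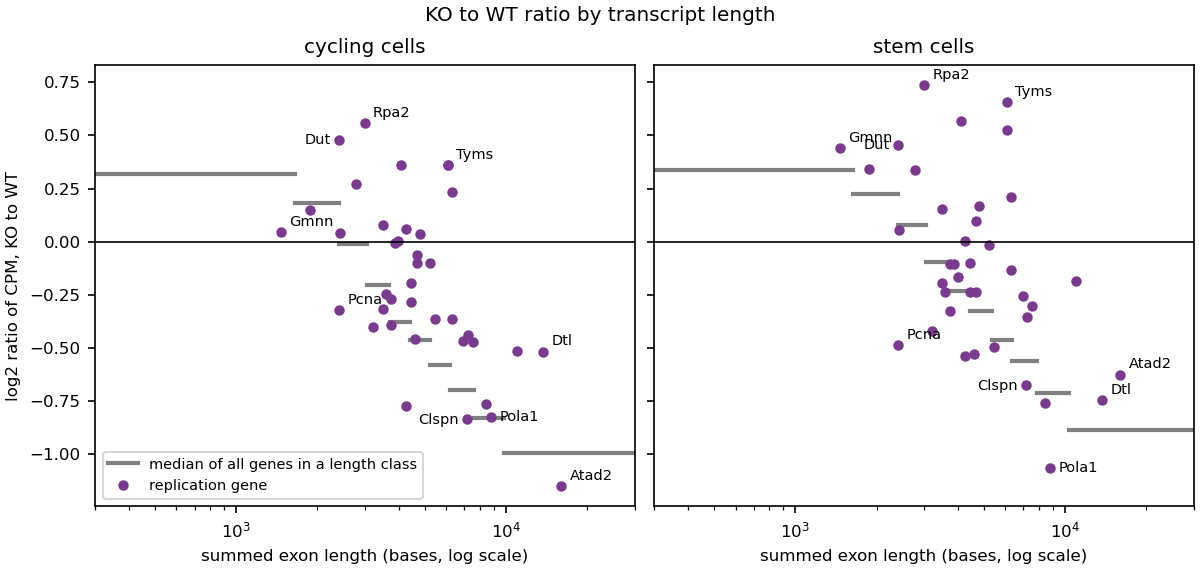
Log2 ratio of KO to WT CPM (vertical axis) of the replication genes in cycling cells and in stem cells against their summed exon length in bases (horizontal log axis), with the median of all tested genes in each of 10 classes of length in grey. The grey medians go down with length, and 29 of the 39 genes in cycling cells and 26 in stem cells lie above the median of their class.

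In immature enterocytes, the gate between progenitors and mature cells, the summed level was higher in KO, 722 CPM in WT against 1088 in KO, a log2 ratio of 0.59 (95% interval 0.52 to 0.66). Higher by 1.5-fold were 17 of 37 genes, where 8.31% of all genes were. The largest ratios were those of Gins2 (1.60, 95% interval 0.91 to 2.37), Tipin (1.36, 95% interval 0.78 to 1.98) and Tyms (1.24, 95% interval 0.89 to 1.62). Gins2 there stood at 6.65 CPM in WT and 20.2 in KO, Tipin at 9.80 and 25.1 CPM and Tyms at 25.9 and 61.3. Cells of this gate were deeper in KO, with a median of 7925.5 UMIs in WT and 15538 in KO. Free RNA was estimated to give 10.99% in WT and 6.61% in KO of the summed level, and net of it the log2 ratio was 0.66. With each cell cut at random to 2000 UMIs, 8.67% (5.93 to 12.1) in WT and 15.9% (12.6 to 19.6) in KO of the immature enterocytes held at least 5 of the 39 genes, with intervals over the cells of 1 library each. The summed mitotic markers of the gate had a log2 KO to WT ratio of 0.20 (95% interval 0.086 to 0.32). The immature enterocyte markers stood at medians of 48.1 in WT and 75.1 in KO per 10000 UMIs. The gate asked for at least 3 of its 6 markers to be detected, at any level, so deeper cells could enter it more easily. Undifferentiated cells with fewer of them, outside the stem and cycling gates (124 WT and 167 KO), stood at 2199 CPM in WT and 2298 in KO. The part of depth and of the contents of the gate in the ratio was not tested.

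Mature enterocytes held little of the replication transcripts in either matrix, 305 CPM in WT and 313 in KO, with a log2 ratio of 0.036 (95% interval -0.046 to 0.12). Free RNA was estimated at 33.2% in WT and 32.2% in KO of these sums. Of the 23 genes with at least 50 UMIs, 5 were higher in KO by 1.5-fold, where 6.88% of all genes were. The lowest ratios were those of Pold3 (-0.69, 95% interval -1.23 to -0.14) and Pcna (-0.65, 95% interval -0.97 to -0.32). The genes past that fold were Tipin (1.80, 95% interval 0.75 to 3.02), Lig1, Dut, Tyms and Mcm5, at 0.93, 0.90, 0.74 and 0.72. Slbp and Pcna stood above their free RNA estimates there. For Slbp 38.1 CPM in WT and 35.8 in KO were counted, with an estimate of 6.88 and 6.21 CPM. Pcna was at 25.1 and 16.03 CPM with 4.96 and 2.98.

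The summed levels of goblet, Paneth, enteroendocrine and tuft cells were higher in KO, and that of cycling goblet cells was lower. A rise was also seen in the barcodes of under 2000 UMIs, from which free RNA was estimated. They stood at 534 CPM in WT and 758 in KO (log2 ratio 0.51, 95% interval 0.41 to 0.60). Their median depth was the lower in KO, 1044.5 UMIs in WT and 770 in KO. Goblet cells stood at 595 CPM in WT and 911 in KO (log2 ratio 0.61, 95% interval 0.55 to 0.67), with 18 of 37 genes higher by 1.5-fold, where 16.2% of all genes were. Paneth cells, the lowest of all gates, stood at 195 and 309 CPM (log2 ratio 0.67, 95% interval 0.63 to 0.70), with 24 of 39 genes higher, where 14.1% of all genes were. Free RNA was estimated at 21.7% in WT and 15.2% in KO of the goblet sum and at 37.2% in WT and 17.2% in KO of the Paneth sum. Cycling goblet cells, goblet cells with high mitotic genes, stood at 1369 CPM in WT and 1231 in KO (log2 ratio -0.15, 95% interval -0.20 to -0.10). Enteroendocrine cells stood at 758 and 1738 CPM and tuft cells at 1236 and 1483, over 122 and 55 enteroendocrine and 51 and 27 tuft cells. The median depth of goblet cells was 5527 UMIs in WT and 14639 in KO and that of Paneth cells 22862 and 44807, and its part in these ratios was not tested. The mitotic markers moved in the same direction as the replication genes in 4 of these gates, with log2 KO to WT ratios of 0.54 in goblet, 0.36 in Paneth, 1.03 in enteroendocrine and -0.78 in cycling goblet cells. The gates' own markers moved the other way in goblet cells, at medians of 2182 in WT and 1138 in KO per 10000 UMIs. So did those of enteroendocrine cells, at 759 in WT and 349 in KO, and of tuft cells, at 52.3 in WT and 27.0 in KO. Paneth markers were lower by less, at 4436 in WT and 4228 in KO. The part of these contents of the gates was not tested.

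At the level of single cells, each cell was cut in that way and the 39 genes with a UMI were counted. The share of stem cells with at least 5 was 49.4% (43.3 to 55.6) in WT and 44.3% (38.9 to 49.8) in KO, with exact (Clopper-Pearson) binomial 95% intervals over the cells of 1 library. Cycling progenitors gave 25.9% (23.4 to 28.6) in WT and 25.9% (22.5 to 29.4) in KO, and mature enterocytes, which should lack the machinery, 0.424% (0.138 to 0.986) in WT and 0.392% (0.107 to 1.0) in KO. The stem and progenitor shares thus stood far above the share of the mature cells in each matrix. The gate of mature enterocytes had been cleared of cells with high mitotic markers, so its low share is not independent of the gating. In goblet cells the share was 3.92% (2.80 to 5.32) in WT and 7.51% (5.16 to 10.5) in KO, and in Paneth cells 0.292% (0.134 to 0.553) in WT and 0.468% (0.152 to 1.09) in KO. None of the 39 genes was seen in 4.12% of WT and 4.52% of KO stem cells and in 56.4% and 59.1% of mature enterocytes. Without the cut to equal depth 86.9% of WT and 93.7% of KO stem cells held at least 5.

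**Figure D5:**
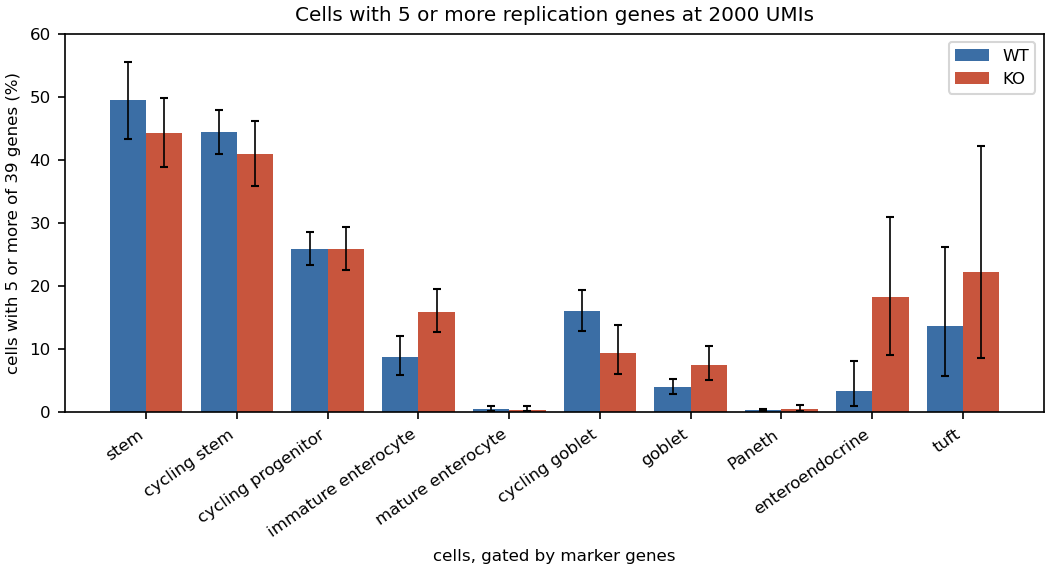
Share of cells in percent (vertical axis, from 0) with at least 5 of the 39 replication genes after each cell was cut to 2000 UMIs, by gate, for WT and KO, with exact binomial 95% intervals. Stem cells and cycling stem cells stand highest, mature enterocytes and Paneth cells near 0, and KO stands above WT in immature enterocytes.

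Beyond these, 49 further genes of replication (origin recognition, other polymerase and clamp loader subunits, histone chaperones, E2F factors) were counted the same way. In cycling cells 11 of 49 were lower in KO by 1.5-fold and 2 higher, beside the 38.7% and 4.29% of all genes given above. In stem cells 9 and 4 of 44 were, beside 30.8% and 6.18%. Their median log2 ratio was -0.15 in cycling cells, beside -0.25 for the 39 genes. The 3 with most UMIs were Rnaseh2c, a subunit of RNase H2 (0.47, interval 0.41 to 0.53), and both subunits of the histone chaperone FACT, Ssrp1 (-0.41, interval -0.49 to -0.34) and Supt16 (-0.80, interval -0.88 to -0.71). The lowest ratios were those of E2f8, a repressor of E2F targets (-1.17, interval -1.35 to -0.98), Wdhd1, which links the helicase to polymerase alpha (-1.14, interval -1.45 to -0.83), and Mcm10, a firing factor (-1.11, interval -1.30 to -0.93).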

How the data were processed

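Single-cell 3-prime libraries (10x Genomics, v2 kit per the labels) had been sequenced by the authors and deposited as filtered matrices of UMI counts per gene and barcode, 1 for WT and 1 for KO, on mm10. The processing notes name Cell Ranger 2.1.1 and the file headers 4.0.0. Barcodes with at least 200 genes and at most 30% mitochondrial UMIs were kept. Those of at least 2000 UMIs were gated by marker genes summed per 10000 UMIs: stem (8 or more, from at least 4 of Lgr5, Ascl2, Olfm4, Smoc2 and 6 others), cycling (10 or more, from at least 4 of Mki67, Top2a, Cdk1, Ccnb1 and 11 others), immature and mature enterocyte, Paneth, goblet, enteroendocrine and tuft, with upper limits on the markers of other types. Immature enterocytes needed at least 3 of 6 markers detected, at any level. Scrublet (scanpy 1.11.5) called 1 WT and 0 KO barcodes, so it did not work here, and doublets were kept, while the study had removed them with DoubletFinder.

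UMIs were summed per gate as CPM, and ratios carry exact conditional binomial, levels exact Poisson and shares Clopper-Pearson intervals of 95% (scipy 1.17.1). These scripts were tested on simulated data. A gene counted as higher or lower past 1.5-fold (KO to WT) or 2-fold (gates) with at least 50 UMIs over both matrices. Free RNA was estimated from barcodes under 2000 UMIs, scaled by Paneth genes, or by enterocyte genes in Paneth cells. Exon lengths were from GENCODE M21, with 98.7% of gene identifiers matched. Exons of Ccne2, Mcm7, Fen1, Lig1, Cdc45, Rfc2 and Gins2 overlap those of a gene on the other strand. Use of strand in the counting was not given in the sources used here. For each role the text names the gene with most UMIs and those with the highest and lowest KO to WT ratio in cycling cells, and of the other replication genes the 3 with most UMIs and the 3 with the most extreme ratios. Other genes were named after their values were seen. The 39 genes and all lists were chosen with earlier results of these data known. Alternatives were other cell filters, totals, thinning, the highest Scrublet scores removed, other marker limits, no minimum of UMIs, length, and, added after the data were seen, UMIs per cell, barcodes of at least 5000 UMIs and the removal of shared barcodes.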

Additional observations from a re-analysis of the deposited data

Results flagged for a closer look

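The summed replication genes had opposite signs of the KO to WT difference in different gates. In cycling cells the log2 ratio was -0.13, while it was 0.59 in immature enterocytes, 0.61 in goblet cells, 0.67 in Paneth cells, 1.197 in enteroendocrine cells and 0.26 in tuft cells. In barcodes of under 2000 UMIs, which were shallower in KO, the log2 ratio was 0.51. With 1 sample a group the difference between these ratios was not tested. Net of the estimated free RNA the ratios were -0.12 in cycling cells, 0.66 in immature enterocytes, 0.73 in goblet and 1.06 in Paneth cells. Cells were deeper in KO in each of these gates, from 55 KO enteroendocrine cells with a median of 12173 UMIs against 2914.5 in WT to Paneth cells with 44807 against 22862, and the part of depth was not tested.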

How the results depend on the processing

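The summed replication genes in cycling cells, with a log2 KO to WT ratio of -0.13, came to -0.16 with a total that leaves out every gene above 1% of it, -0.086 with each cell thinned to 2000 UMIs, -0.22 with stricter and -0.10 with looser marker limits. Set against genes of similar length the ratio turned to 0.28, and as mean UMIs per cell, a setting added after the data were seen, to 0.86. In stem cells the ratio of -0.083 came to -0.16 with stricter limits, -0.012 with looser limits and -0.15 in barcodes of at least 5000 UMIs, also added later, and turned to 0.19 by length and 0.59 per cell. The count of genes lower by 1.5-fold in cycling cells went from 5 to 9 with stricter limits, 0 by length and 0 per cell. In stem cells the count went from 5 to 3 after thinning, 3 with looser limits, 1 by length and 0 per cell. For length and UMIs per cell the reference itself is the one that changes, and for the others the cause was not tested.

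The excess of cycling cells over mature enterocytes held for 29 to 39 genes over all alternatives, fewest after thinning. Where the minimum applied, a gene counted only with at least 50 UMIs over both gates in each matrix. Genes could therefore leave the count after thinning without losing the excess. The log2 ratio of the KO to the WT share of stem cells with at least 5 genes lay between -0.35 and -0.041 against -0.16. That share has no value under another total, thinning, minimum of UMIs or length, and the summed ratios have none without a minimum of UMIs, which they do not use. No paired analysis was possible because each group is 1 matrix whose cells carry no sample, and for the same reason no sample could be left out. The spread between mice is unknown, so no ratio given can be set against it.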
